A study of Homo sapiens with 4 samples.

Results

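In non-differentiated HUDEP-2 cells, 11148 of 26624 tested windows of 100 kb were partially methylated, with fewer than 50% of their reads at CpGs methylated. They spanned 1115 Mb and made up 41.9% of the tested windows of chromosomes 1 to 22. HUDEP-2 cells are human red cell precursors that were immortalised to grow in culture and that make adult haemoglobin. DNA methylation was measured in them by whole-genome bisulfite sequencing, in which unmethylated cytosine reads as T and methylated cytosine as C. There were 4 libraries, 1 per group. The groups were untreated non-differentiated cells, and cells differentiated towards red cells in 1 of 3 ways: vehicle (DMSO) alone, an inhibitor of DNMT1, or an inhibitor of EED. The labels' protocols give a final DMSO concentration of 0.1% from the expansion stage on, followed by 4 days of growth in differentiation medium and 2 days in maturation medium. Names and doses of the inhibitors were not given in the sources used here. All 4 groups come from a single cell line, kept in doxycycline throughout.

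Windows were laid end to end from base 1 of each chromosome of hg38, and a window was tested if it held at least 200 CpGs listed in all 4 tables. Of 27679 windows with sequenced bases, 1055 had fewer and were not tested. Centromeric and other repeated DNA was neither marked nor left out of the windows. The level of a window is the sum of its methylated reads over the sum of its reads. The level in the non-differentiated library chose the windows, so levels in that library and differences from it describe the choice and support nothing. With 1 library per group no difference between conditions was tested, windows are not replicates, and every interval covers counting error only. Reads that come from PCR and carry no molecular identifier can be copies of 1 molecule, which widens the true error.

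Partially methylated domains are long tracts of intermediate methylation seen in many cultured, differentiated and tumour cells. They lie mostly in gene-poor, late-replicating DNA at the nuclear lamina, while the rest of the genome keeps nearly all CpGs methylated. DNMT1 copies methylation onto the new strand after replication, helped by UHRF1, and isolated CpGs flanked by A or T, written WCGW with W for A or T, are known to lose it most readily over many divisions. EED is the subunit of Polycomb repressive complex 2 that binds methylated lysine 27 of histone H3, a repressive mark that can spread over such domains.

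The sequences below show solitary WCGW CpGs. Those outside CpG islands, which are defined further on, were 1369773 of the 7156989 CpGs used in these windows. Clustered CpGs, described further on by their pooled levels, are not shown. They come from the lowest window of each of the 2 longest runs of adjacent partially methylated windows, and from the tested windows just above 85% on the same chromosomes. Within each window the CpG at the centre was taken by sequence and coverage, never by level. All are on the plus strand of hg38. Capitals mark the WCGW of a solitary CpG, with no other CpG within 35 bases.
Solitary, from a partially methylated window, chr2:81250575-81250675: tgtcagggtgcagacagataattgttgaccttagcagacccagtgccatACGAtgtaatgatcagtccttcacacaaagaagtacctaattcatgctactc
Solitary, from a partially methylated window, chr14:28730488-28730588: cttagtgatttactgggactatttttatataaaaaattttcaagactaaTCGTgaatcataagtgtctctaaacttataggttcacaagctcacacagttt
Solitary, from a highly methylated window, chr14:55032144-55032244: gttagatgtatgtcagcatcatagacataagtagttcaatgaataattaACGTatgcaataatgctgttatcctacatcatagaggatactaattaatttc
Solitary, from a highly methylated window, chr2:143162862-143162962: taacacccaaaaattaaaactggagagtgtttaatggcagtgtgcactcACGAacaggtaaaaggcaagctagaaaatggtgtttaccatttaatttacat

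The 2 stretches from partially methylated windows lie outside protein-coding genes, while the other two lie in introns of SOCS4, an inhibitor of cytokine signalling, and ARHGAP15, a regulator of Rac. The solitary CpG on chromosome 14 in the partially methylated run was methylated in 4 of 37 reads of the non-differentiated library, 14 of 46 with DMSO, 1 of 39 under the DNMT1 inhibitor and 2 of 47 under the EED inhibitor. The one on chromosome 2 was methylated in 30 of 47, 22 of 41, 2 of 51 and 13 of 57 reads in the same order. Of the 2 solitary CpGs from highly methylated windows, the SOCS4 one was methylated in 43 of 47, 40 of 47, 13 of 62 and 55 of 57 reads. The ARHGAP15 one went against its window and was methylated in 0 of 43, 0 of 47, 0 of 38 and 1 of 61 reads. The Wilson upper limits of its 3 values of 0 were 8.20%, 7.56% and 9.18%. A T in the line's own sequence at this site would read as unmethylated C does, and this was not tested. Taken as deposited, single CpGs thus departed widely from their window in both kinds of window, and each rests on few reads. The levels given from here on therefore pool many CpGs.

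The partially methylated windows held 7156989 CpGs listed in all 4 tables, or 31.5% of those in tested windows. Their pooled level was 42.7% in the non-differentiated library, 41.9% with DMSO, 10.2% under the DNMT1 inhibitor and 40.3% under the EED inhibitor. The 15476 other tested windows stood at 70.7%, 69.3%, 19.9% and 68.8% in the same order. In the non-differentiated library 7572 of the partially methylated windows were at 40% or more, 3488 from 30% to under 40%, and 88 under 30%. The windows were also partial in the other differentiated libraries: 11137 of the 11148 were under 50% with DMSO and 11134 with the EED inhibitor. With the DNMT1 inhibitor every one of the 26624 tested windows was under 50%. Choosing windows by the DMSO library in place of the non-differentiated one gave 11770, of which 11137 were shared, or 99.9% of the first set and 94.6% of the second.

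**Figure D1:**
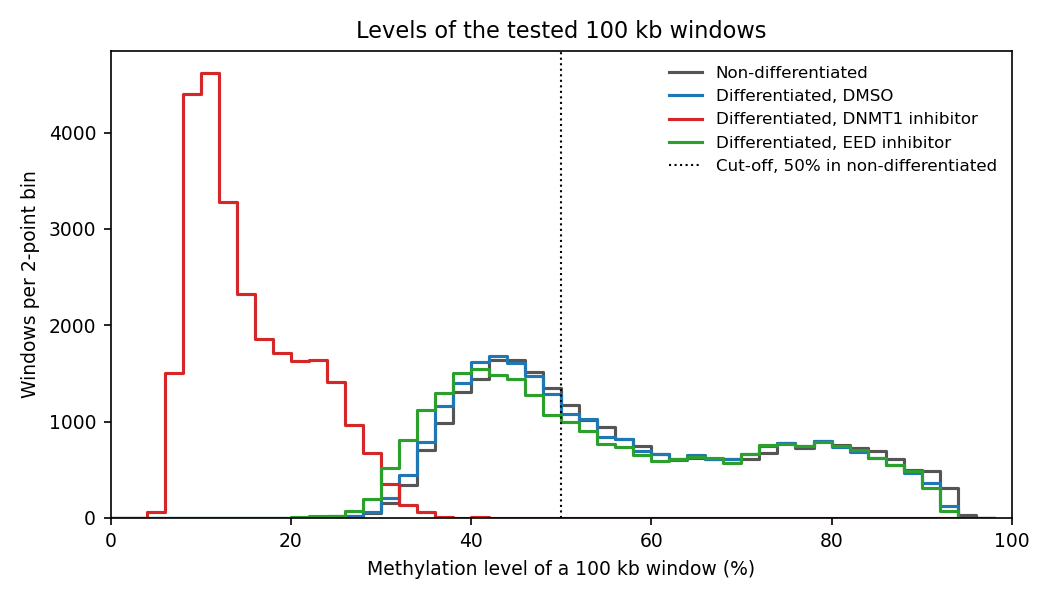
Number of tested 100 kb windows (y axis) by methylation level in percent (x axis, bins of 2 points), 1 line per library; the dotted line is the 50% cut-off that was applied to the non-differentiated library. The non-differentiated, DMSO and EED inhibitor lines peak between 40% and 46% and have a lower, broad shoulder from 70% to 90%, while all windows of the DNMT1 inhibitor library lie below 50%.

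The cut-off fell on a slope and not in a gap. The windows just under it were chr8:113700001-113800000, chr5:11100001-11200000 in CTNND2, a catenin of neurons, and chr2:91800001-91900000, all at 50.0% after rounding. Those just over it were chr12:128500001-128600000 in TMEM132C, chr1:237600001-237700000 in RYR2, the calcium release channel of heart muscle, and chr9:6200001-6300000 at IL33, an alarm cytokine. All 3 were likewise at 50.0%. At their depth these 6 windows are indistinguishable in the non-differentiated library.

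Depth was similar in both kinds of window, though not the same in every library. A CpG of a partially methylated window had on average 28.4 reads in the non-differentiated library, 30.01 with DMSO, 30.6 under the DNMT1 inhibitor and 32.6 under the EED inhibitor. Relative to the other tested windows this was 100.8%, 105%, 102% and 107%, so the EED inhibitor library was the one with relatively most reads there. The part of these coverage differences in the methylation differences was not tested. Because the share of reads from partially methylated windows varied, the difference over all tested windows pooled, −1.43 points for DMSO minus non-differentiated, need not lie between those of the parts. Coverage was uneven on chromosome 18, where partially methylated CpGs had 35.1 reads with DMSO and 30.3 with the EED inhibitor, and on chromosome 10, with 26.6 and 31.0. It was high in all 4 libraries on chromosome 8, at 46.9 to 54.3, on chromosome 21, at 40.6 to 45.5, on chromosome 6, at 36.9 to 43.2, and on chromosome 19, at 37.1 to 40.7.

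With differentiation, partially methylated windows were slightly lower, and by fewer points than the rest. The pooled difference, DMSO minus non-differentiated, was −0.781 points (95% interval −0.790 to −0.771), against −1.21 in windows from 50% to under 70% and −1.38 in windows at 70% or more. As a share of the starting level the differences were −1.83%, −2.03% and −1.71% in the same order, so the partially methylated windows lay between the others on that scale. The DMSO level was lower in 9648 of the partially methylated windows (86.5%) and higher in 1500, where 92.4% of all tested windows were lower. A fall of 3 points or more was seen in 38 of them, or 0.341%, where 1.67% of all tested windows reached that size, and a rise of 3 points in 0, where 0.00376% did. Since the non-differentiated library chose the windows, nothing is read from these counts. The 3 largest falls were at chr4:60300001-60400000, from 48.1% to 43.8%, at chr1:190100001-190200000, from 48.2% to 44.1%, and at chr14:62500001-62600000, from 45.3% to 41.2%. The one on chromosome 1 overlaps BRINP3, a gene expressed in brain.

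The DNMT1 inhibitor library was lower than DMSO in every partially methylated window, as it was in all 26624 tested windows. The pooled difference was −31.7 points, against −49.4 in the other windows and −55.4 in windows at 70% or more. Over single windows it ran from −41.5 to −13.7 points, with a median of −32.1. A fall of 25 points or more was met by 9819 of the windows (88.1%), below the 95% of all tested windows, but a window that starts low has fewer points to lose. As a share of the DMSO level, the inhibitor library kept 24.4% in partially methylated windows, 26.7% in windows from 50% to under 70%, and 30.1% in windows at 70% or more. That order held on 22 of 22 chromosomes between partially methylated and all other windows. Reads of the lambda DNA added before conversion were not analysed here, so the unconverted share within the 10.2% was not measured.

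The share kept with the DNMT1 inhibitor was lower towards the upper end of the partially methylated range, opposite to the order above the cut-off. Its median over windows was 28.6% in those at 25% to under 30% in the non-differentiated library, 29.0% at 30% to under 35% and 27.1% at 35% to under 40%. It was 22.1% at 40% to under 45% and 22.4% at 45% to under 50%, and above the cut-off it rose step by step to 32.2% at 90% to under 95%. The spread in each class was wide, with the 10th to 90th percentile from 18.4% to 32.0% at 40% to under 45%. The windows with the largest falls were all just under the cut-off: chr7:81500001-81600000, from 49.3% to 7.86%, chr1:198700001-198800000 at PTPRC, from 48.8% to 7.77%, and chr3:114400001-114500000 at ZBTB20, from 48.8% to 7.83%. PTPRC encodes CD45, a phosphatase of white blood cells, and ZBTB20 a zinc finger repressor.

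**Figure D2:**
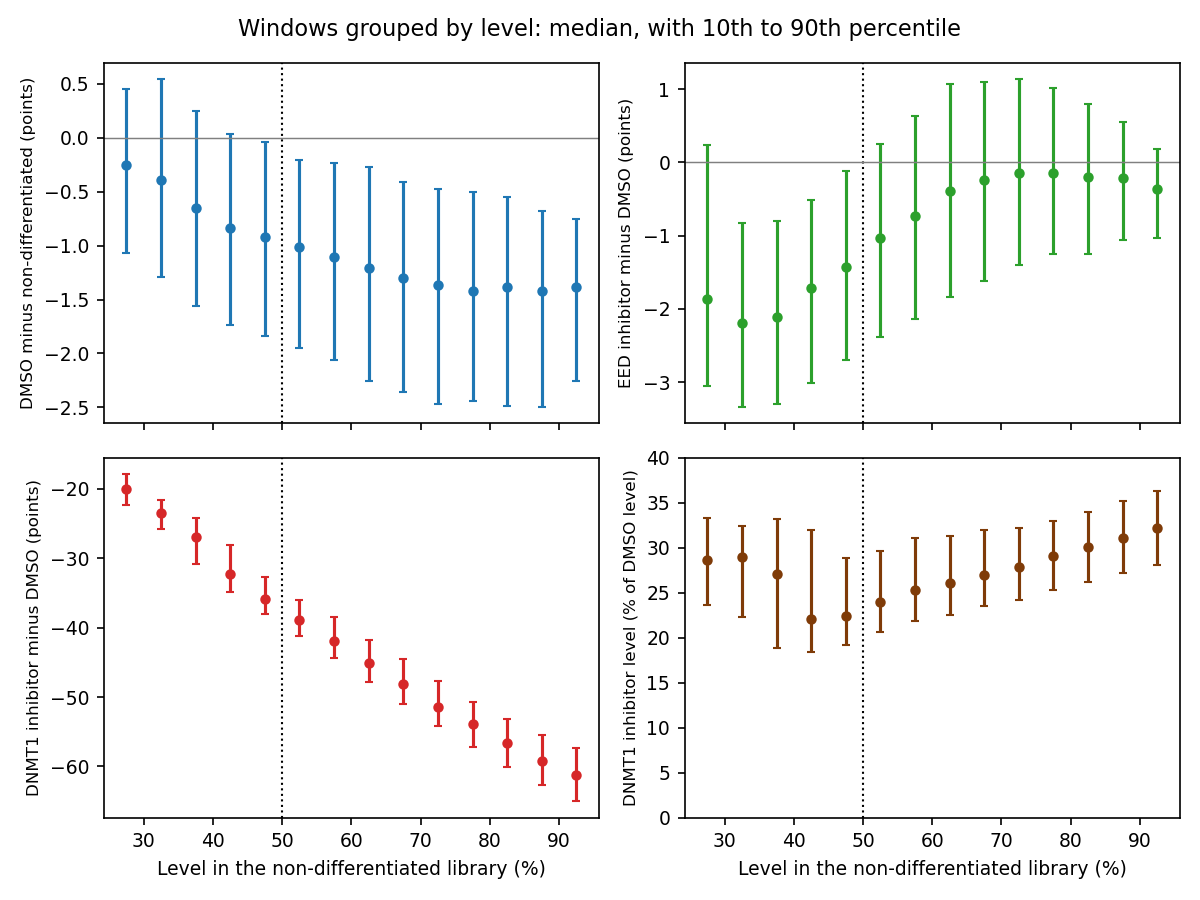
Tested windows grouped in 5-point classes of their level in the non-differentiated library (x axis, %); points are medians over windows and bars run from the 10th to the 90th percentile. The panels show 3 differences in points and the DNMT1 inhibitor level as a percent of DMSO, and the dotted line is the 50% cut-off. Classes under 25% are not drawn. The EED inhibitor difference is lowest, −2.19 points, at 30% to under 35%, and the kept share is lowest, 22.1%, at 40% to under 45%.

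With the EED inhibitor the partially methylated windows were lower than with DMSO, by more points than the rest of the genome. The pooled difference was −1.65 points (95% interval −1.66 to −1.64) in them, −0.690 in windows from 50% to under 70%, and −0.193 in windows at 70% or more. The level was lower in 10589 of the 11148 windows (94.99%), against 67.8% of the other windows. A fall of 3 points or more was met by 1244 of them, or 11.2%, and by 259 of the other windows, or 1.67%, where 5.65% of all tested windows reached that size. A rise of 3 points or more was seen in 23 (0.206%), where 0.406% of all tested windows did. This comparison shares its DMSO library with the one for the DNMT1 inhibitor, so they are not independent.

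Within the partially methylated range the difference with the EED inhibitor was larger at lower levels, down to 30%. Its median over windows was −1.43 points at 45% to under 50% in the non-differentiated library, −1.71 at 40% to under 45%, −2.11 at 35% to under 40% and −2.19 at 30% to under 35%, and it was −1.87 in the 74 windows at 25% to under 30%. Above the cut-off it moved from −1.04 at 50% to under 55% to −0.140 at 70% to under 75%, and then back to −0.367 at 90% to under 95%. The 3 largest falls were chr4:164400001-164500000, from 46.8% with DMSO to 40.5%, chr4:161300001-161400000, from 43.7% to 37.5%, and chr5:104200001-104300000, from 45.2% to 39.1%. The second overlaps FSTL5, a follistatin-like gene expressed in brain. The 3 largest rises were chr17:70800001-70900000, from 46.2% to 53.6%, chr10:90500001-90600000, from 43.2% to 49.3%, and the window of BRINP3 on chromosome 1, from 44.1% to 49.8%. The BRINP3 window is also named above for its low DMSO level, and both differences use that library. Each of these windows held 434 to 603 CpGs, and its counting interval was under 2 points wide in every library.

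The partially methylated windows formed 1924 runs of adjacent windows. Of these, 562 were single windows, while 720 runs of 5 or more held 8814 windows, or 79.1%, and 346 runs of 10 or more held 57.0%. Runs of at least 1.1 Mb held 50% of the span. The label of domains thus fits most of the windows by length but not the isolated ones. Runs in centromeric or other repeated DNA were not set apart, so length alone does not make a run such a domain.

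The longest run was chr2:75800001-83500000, 7.7 Mb in 77 windows, of which 72 held no start of a protein-coding gene. Its genes are LRRTM4, LRRTM1 and CTNNA2, which act in synapses and neuronal adhesion, and REG3G, REG1B, REG1A and REG3A, secreted lectins of gut and pancreas. The run stood at 39.8% in the non-differentiated library, 39.1% with DMSO, 11.4% under the DNMT1 inhibitor and 36.7% under the EED inhibitor. The second, chr14:25100001-30500000, holds, among others, NOVA1, a splicing factor of neurons, and PRKD1, a protein kinase. It was the lowest of the 5 longest, at 36.4%, 35.8%, 10.4% and 33.5%. The other three were chr4:132600001-137900000 with the protocadherins PCDH10 and PCDH18, chr3:81900001-87100000 with the adhesion gene CADM2 and with VGLL3, and chr4:61900001-67100000 with TECRL and the ephrin receptor EPHA5. Their levels were 38.3% to 39.8% in the non-differentiated library, 37.5% to 39.2% with DMSO, 11.6% to 11.9% with the DNMT1 inhibitor and 34.97% to 36.6% with the EED inhibitor. In the 5 runs the EED inhibitor difference was −2.36 to −2.73 points. It was negative in all but 3 of the windows of the run on chromosome 2 and in all of the windows of the others. Beside this, it was negative in 94.99% of all partially methylated windows and 79.2% of all tested windows. The DNMT1 inhibitor library kept 29.0% to 31.4% of the DMSO level in the 5 runs.

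Longer runs were lower in level, poorer in CpGs and further apart between DMSO and the EED inhibitor. Single windows stood at 46.7% in the non-differentiated library and differed by −1.09 points with the EED inhibitor. Runs of 10 to 19 windows stood at 41.8% and differed by −1.72, and the 12 runs of 40 or more stood at 38.98% and differed by −2.38. A fall of 3 points or more with the EED inhibitor was met by 3.74% of single windows and 28.3% of windows in runs of 40 or more. The share kept with the DNMT1 inhibitor went from 23.6% in single windows through 22.7% in runs of 5 to 9 to 29.7% in runs of 40 or more. CpG density went from 9.97 per kb in single windows to 5.86 in runs of 40 or more, and the part of density in these differences was not tested.

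The borders were gradual. Of 1440 edges of runs of 5 or more windows, 884 were used, those whose next 3 windows outside were all tested and not partially methylated. That choice itself keeps the outside level high. At these edges the pooled level of the non-differentiated library went from 70.2% at 290 to 300 kb outside through 57.3% at 30 to 40 kb outside to 51.3% in the last 10 kb. It was 47.9% in the first 10 kb inside, 45.2% at 40 to 50 kb and 42.5% at 290 to 300 kb inside. The step at the edge itself is partly made by the cut-off on the window. Across the same distance the EED inhibitor difference went from −0.438 points to −1.22 in the last 10 kb outside, −1.17 in the first 10 kb inside and −1.70 at 290 to 300 kb inside. Differentiation went the other way, from −1.51 points outside to −0.815 inside. The share of the DMSO level kept with the DNMT1 inhibitor went from 28.7% to 22.5%.

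**Figure D3:**
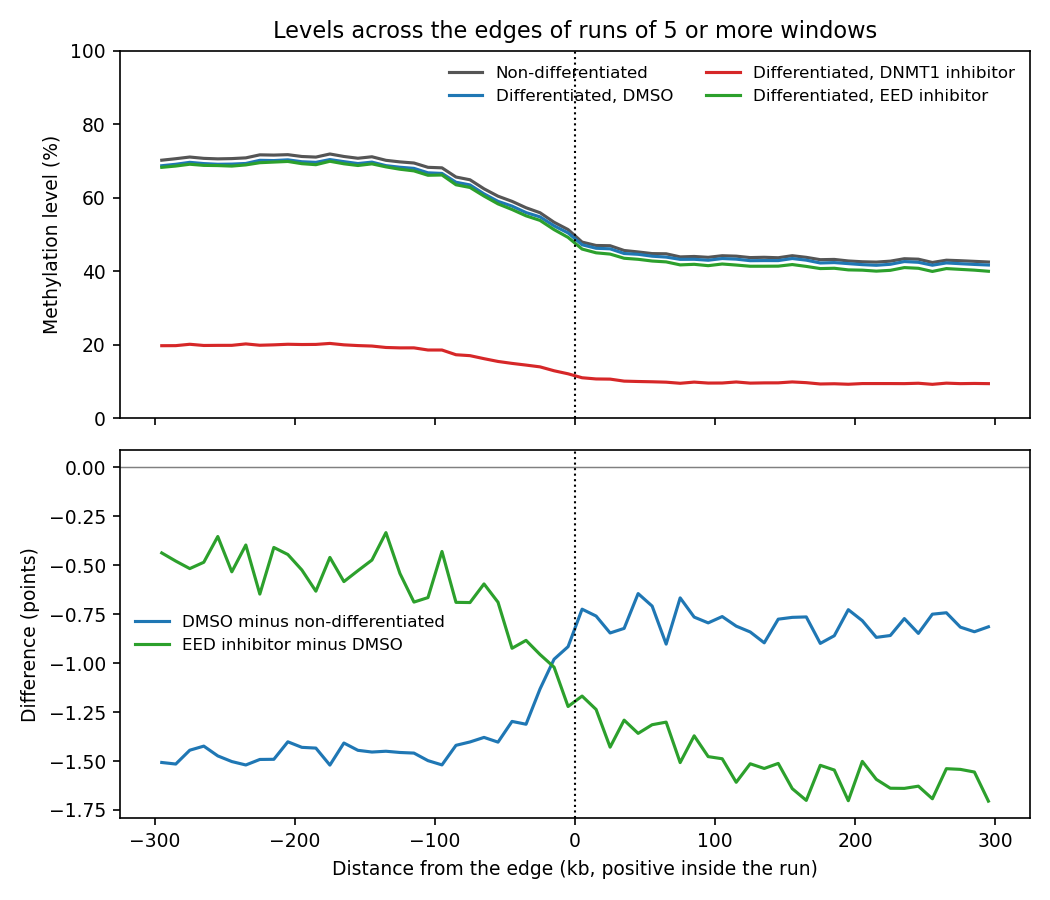
Pooled level in percent (upper panel) and pooled difference in points (lower panel) in bins of 10 kb by distance from the edges of runs of 5 or more partially methylated windows (x axis, kb, positive inside), over the 884 of 1440 edges with 3 tested windows outside that were not partially methylated. The EED inhibitor difference moves away from 0 on entering the run, to −1.70 points, while the difference between DMSO and non-differentiated cells moves towards 0, to −0.815.

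Within the windows the intermediate level came from CpGs of all kinds and not from a uniform level. In the non-differentiated library 36.5% of their CpGs were at 20% or less, 38.8% were between 20% and 80%, and 24.7% were at 80% or more. In windows at 70% or more these shares were 9.17%, 15.9% and 74.9%. With the DNMT1 inhibitor 81.1% of the CpGs of partially methylated windows were at 20% or less and 0.0972% at 80% or more. With the EED inhibitor 38.3% were at 20% or less, against 36.1% with DMSO. Stretches of 10 kb were more even: 82.9% of them were under 50% in the non-differentiated library and 0.141% at 70% or more.

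Outside CpG islands, levels within the windows differed by the sequence around the CpG. CpGs in islands, described further on, are not in the classes given here. The 1369773 solitary WCGW CpGs of partially methylated windows, of the kind shown from chromosomes 2 and 14, stood at 16.8% in the non-differentiated library, 16.7% with DMSO, 2.63% under the DNMT1 inhibitor and 15.5% under the EED inhibitor. Those of windows at 70% or more stood at 70.6%, 68.9%, 13.0% and 68.7%. At the other end, CpGs with C or G on both sides and at least 3 other CpGs within 35 bases stood at 79.5%, 78.1%, 32.0% and 77.2% in partially methylated windows. In windows at 70% or more they stood at 89.9%, 89.1%, 39.7% and 89.1%. The gap between the kinds of window was thus 53.8 points at solitary WCGW CpGs and 10.4 points at clustered CpGs flanked by C or G, in the non-differentiated library that chose the windows. At a given number of neighbours, A or T on both sides went with a lower level than C or G on both sides in all 4 libraries.

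The share of the DMSO level kept with the DNMT1 inhibitor followed the same order. In partially methylated windows it was 15.7% at solitary WCGW CpGs, 23.2% at solitary CpGs with C or G on both sides, and 40.9% at clustered CpGs with C or G on both sides. In windows at 70% or more it was 18.9%, 29.0% and 44.6%. In each of the 12 classes of neighbours and flanks, all outside islands, the partially methylated windows were lower with the EED inhibitor than with DMSO. The differences ran from −0.888 to −2.02 points. In windows at 70% or more the same difference ran from −0.0255 to −0.599 points. With differentiation, solitary WCGW CpGs of partially methylated windows differed by −0.0720 points, against −1.70 in windows at 70% or more.

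**Figure D4:**
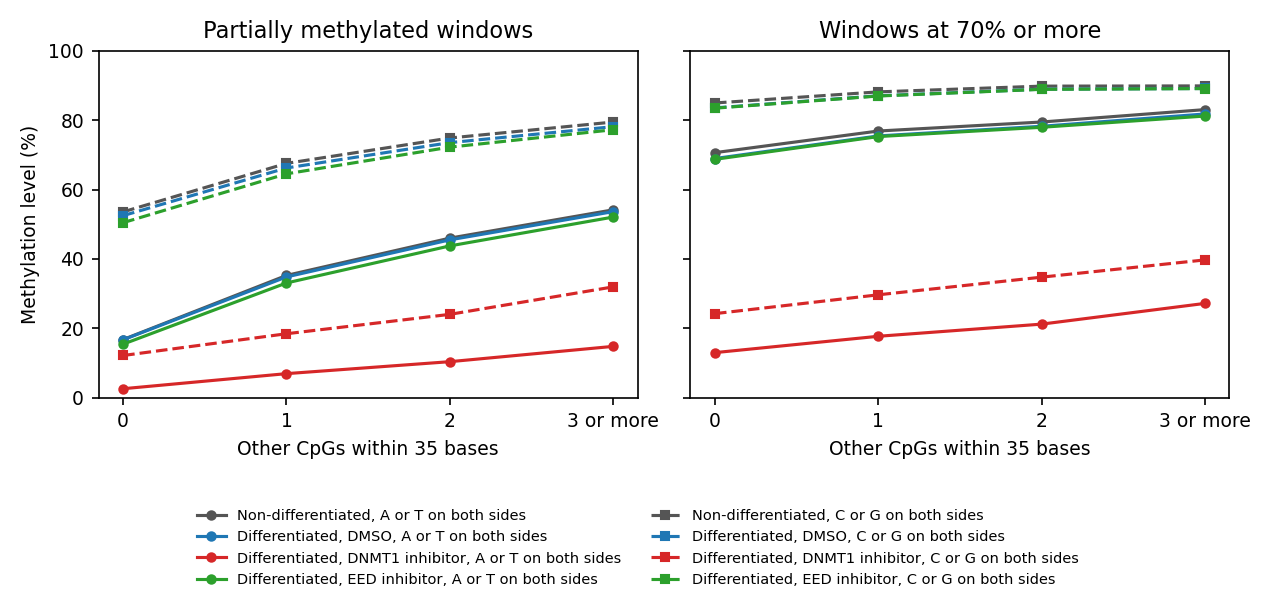
Pooled methylation level in percent (y axis) by the number of other CpGs within 35 bases (x axis), in partially methylated windows and in windows at 70% or more; colours are libraries, solid lines are CpGs with A or T on both sides and dashed lines CpGs with C or G on both sides. CpGs in islands are left out. In partially methylated windows the non-differentiated level rises from 16.8% to 79.5% across the classes, against 70.6% to 89.9% in the other panel.

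CpG islands moved differently from the DNA around them. Islands here are stretches of at least 500 bases, rich in GC and in CpG, and they held 2.73% of the CpGs of partially methylated windows. Island CpGs stood at 34.7% in the non-differentiated library, 33.4% with DMSO, 14.7% under the DNMT1 inhibitor and 34.1% under the EED inhibitor, a difference of 0.760 points from DMSO where the CpGs outside islands differed by −1.70. The pooled EED inhibitor difference in islands was also positive, 0.223 points, in windows from 50% to under 70%, and −0.572 in windows at 70% or more. Taken island by island, its median was 0.328, 0.117 and 0.0243 points in these 3 kinds of window, from the lowest level up. The negative sign in windows at 70% or more thus held for the pooled value and not for the median. Outside islands, CpGs of partially methylated windows stood at 43.95% inside protein-coding genes and 42.3% outside genes in the non-differentiated library. In windows at 70% or more these levels were 85.4% and 76.3%. The same library chose the windows and so limits these levels, and nothing is read from the gaps. In partially methylated windows the EED inhibitor difference was −1.51 points inside genes and −1.79 outside.

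At promoters, taken from 1000 bases before to 500 bases after a gene's start, levels of the non-differentiated library in and outside partially methylated windows were alike where an island was present. The 1207 island promoters in partially methylated windows had a median of 18.6% in the non-differentiated library, and the 11879 in other windows also 18.6%. Without an island the medians were 40.4% over 992 promoters in partially methylated windows and 62.0% over 3545 in other windows. With the DNMT1 inhibitor the medians without an island were 7.37% and 13.3%, while those with an island stood in the opposite order, 4.92% and 3.45%.

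A minority of partially methylated windows were rich in islands, which are often unmethylated in any tissue, and these are not domains in the usual sense. In 210 of them, or 1.88%, at least 20% of the CpGs lay in islands. The lowest window of all was of this kind, chr12:53900001-54000000 over HOXC13, HOXC12, HOXC11, HOXC10, HOXC9 and HOXC6, where 40.8% of CpGs were in islands. It stood at 17.9% in the non-differentiated library, 17.5% with DMSO, 3.89% under the DNMT1 inhibitor and 19.4% under the EED inhibitor. The third lowest, chr2:176100001-176200000 over the HOXD cluster, stood at 21.6%, 20.3%, 6.10% and 22.2%. The second lowest, chr10:39100001-39200000, held no gene and no island CpG and stood at 20.2%, 20.3%, 6.38% and 18.1%. Over the 210 island-rich windows the EED inhibitor difference was −0.122 points, and over the other 10938 it was −1.70.

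Partially methylated windows were found on every chromosome tested, in unequal shares. They made up 72 of the 360 tested windows on chromosome 22, 20.9% on chromosome 19 and 22.6% on chromosome 17, and between 35.1% and 53.3% on the other 19. The highest shares were 53.3% on chromosome 18, 51.0% on chromosome 8 and 49.1% on chromosome 4. Across the 22 chromosomes, which share the libraries and differ in base composition, Spearman's rho between this share and the number of protein-coding genes per Mb was −0.78, given as a description. Only 3.40% of the partially methylated windows lay within 5 Mb of a chromosome end, against 9.35% of the other tested windows.

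**Figure D5:**
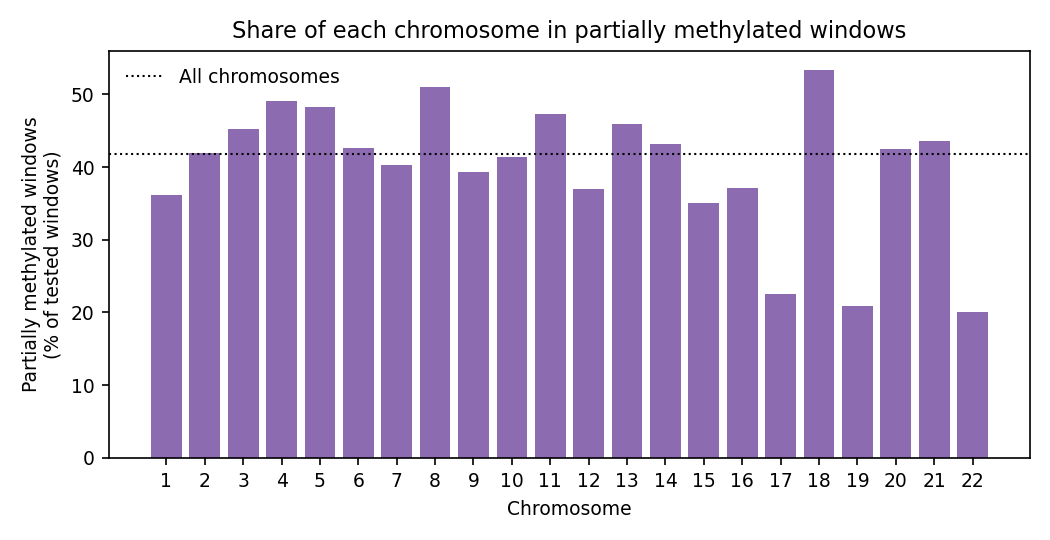
Partially methylated windows as a percent of tested windows (y axis) on each of chromosomes 1 to 22 (x axis); the dotted line is the share over all of them, 41.9%. Chromosomes 17, 19 and 22 lie at or below 22.6%, and chromosome 18 is highest at 53.3%.

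Pooled levels of the partially methylated windows ran from 40.5% on chromosome 21 to 44.3% on chromosome 19 in the non-differentiated library. The 50% cut-off in that library limits this range in advance, so nothing is read from it. All 3 differences were negative on 22 of 22 chromosomes. The EED inhibitor difference ran from −2.54 points on chromosome 21, one of those with high coverage, to −1.28 on chromosome 9, and it was further below 0 than that of the other windows on all 22. On chromosome 18, where the EED inhibitor library had fewer reads than DMSO, it was −2.18.

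The windows were poor in genes, GC and CpGs. They held 2.101 starts of protein-coding genes per Mb, against 10.3 in the other tested windows, and 84.9% of them held none, against 46.1%. No base of a protein-coding gene lay in 58.4%, against 17.8%. GC content was 38.5% against 42.7%, CpG density 7.26 against 11.9 per kb, and 29.96% held an island against 68.5%. In all, 2342 of 18357 protein-coding genes that start in a tested window, or 12.8%, start in a partially methylated one. Among genes longer than 500 kb the share was 61.2%, 189 of 309.

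Gene lists fell on either side, and each is read beside the 12.8% of all protein-coding genes. The lists were chosen with these data known, so the counts are descriptions. Each count is out of the genes of a list that start in a tested window. Of 59 genes listed under neuronal adhesion and synapses, not all with that role, 52 start in a partially methylated window (88.1%). Those outside are AUTS2, CNTN3, CTNNA3, DLG2, MACROD2, SGCZ and TENM3. Among all genes longer than 500 kb the share was 61.2%, and the part of gene length in the 88.1% was not tested. The lowest window of the 52 genes is that of PCDH10, a protocadherin of brain, at chr4:133100001-133200000. It stood at 30.6% in the non-differentiated library, 30.3% with DMSO, 9.13% under the DNMT1 inhibitor and 29.0% under the EED inhibitor. The window of CSMD3, also low, stood at 34.9%, 34.4%, 9.89% and 32.7%. The contactins CNTN4 and CNTN6, on chromosome 3, start in windows at 35.3% and 35.5%. Over the 52 windows the median EED inhibitor difference was −1.58 points, beside −1.74 over all partially methylated windows.

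Of the 13 type II cadherins, calcium-dependent adhesion molecules, 10 start in a partially methylated window. CDH18 was lowest, in a window at 34.7% in the non-differentiated library, 34.4% with DMSO, 10.6% under the DNMT1 inhibitor and 30.4% under the EED inhibitor, and CDH7, CDH10 and CDH9 followed at 36.2%, 37.5% and 38.7% in the non-differentiated library. Their 10 windows were all lower with the EED inhibitor, where 94.99% of all partially methylated windows were, and the median difference was −2.54 points beside −1.74. Of the ion channels of synapses, 14 of 23 glutamate receptor genes start in such a window, among them GRIA4, GRIK2, GRIK3, GRM7 and GRM5. So do 7 of 16 subunits of the GABA-A receptor, the chloride channel of inhibitory synapses. Among them, GABRB2 and GABRA6 on chromosome 5 start in windows at 32.7% and 39.5%.

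Families that sit in tandem arrays share windows, so their genes are not separate observations. Olfactory receptors start in a partially methylated window in 194 of 370 cases (52.4%), over 73 windows. The lowest are OR4A5, OR4C46, OR4A8, OR4A16 and OR4A15 near the centromere of chromosome 11, in windows at 23.5% to 26.1% in the non-differentiated library, 23.6% to 26.0% with DMSO, 6.36% to 7.16% with the DNMT1 inhibitor and 21.4% to 23.8% with the EED inhibitor. All 73 windows were lower with the EED inhibitor than with DMSO, near the 94.99% of all partially methylated windows. Of the keratin-associated proteins, matrix proteins of hair, 44 of 67 start in 9 such windows, the lowest being the chromosome 21 window of KRTAP22-1 and KRTAP20-1 to KRTAP20-4 at 30.3%. Of the bitter taste receptors 4 of 10, of the beta defensins 9 of 27, and of the UGT2 enzymes 0 of 6 start in a partially methylated window. The full lists hold 24, 40 and 10 genes, and those that start in no tested window are left out.

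Clustered protocadherins, cell-surface labels of neurons, start in a partially methylated window in 40 of 53 cases, in 6 windows of chromosome 5. The 13 outside are the members of the alpha cluster other than PCDHAC1 and PCDHAC2. These 6 windows kept a median of 41.9% of the DMSO level with the DNMT1 inhibitor, beside 23.3% over all partially methylated windows. Their median EED inhibitor difference was −0.387 points. HOX genes, which set position along the body axis, start in such a window in 33 of 39 cases. Of their 8 windows 2 were lower with the EED inhibitor. Beside this, 94.99% of all partially methylated windows, 57.1% of the 210 island-rich ones and 79.2% of all tested windows were lower. The median difference over the 8 windows was 1.11 points, beside −1.74 over all partially methylated windows and −0.138 over the island-rich ones.

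Genes used by red cells and by all cells lay outside. None of 45 tested erythroid genes, among them the globin genes, KLF1 and TFRC, starts in a partially methylated window. The median level of the windows they start in was 76.4% in the non-differentiated library, beside 71.7% over all protein-coding genes. Of 35 proteasome subunits 0 do, and of 73 cytosolic ribosomal proteins 1 does, RPL10L, a retrogene copy used in the testis, in a window at 46.5%. Zinc finger genes with a ZNF symbol do in 46 of 487 cases (9.45%). Their lowest windows, those of ZNF736 and ZNF727 on chromosome 7, stood at 36.4% and 36.5%. The 38 windows of this list kept a median of 32.1% of the DMSO level with the DNMT1 inhibitor.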

How the data were processed

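Per the file headers, each table deposited by the authors lists 1 CpG per line, with a coverage, which is a count of reads, and 2 percentages of them, freqC for C and freqT for T. Every CpG in the deposited tables had a count of at least 10 reads, and both strands were merged. The submitters' processing notes name hg38, Trim Galore 0.6.7, cutadapt 4.1, Bismark, Bowtie2 2.1.0 and methylKit, with no role or order. Removal of duplicates is not given in the sources used here. Unremoved duplicates would make reads less independent, and the minimum of 10 reads leaves out GC-rich DNA more often.

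Methylated reads were recovered as coverage times the deposited percent of C, rounded to whole reads. Levels are methylated reads over all reads, so deeper CpGs weigh more. Only CpGs listed in all 4 tables were used. Mean coverage of listed CpGs on chromosomes 1 to 22 was 27.6 to 30.2 reads per library. Intervals are 95% Wilson intervals for levels and normal counting intervals for differences. Genes came from GENCODE 44. Strict islands were found in hg38: stretches of at least 500 bases with a GC share of at least 0.55 and an observed to expected CpG ratio of at least 0.65. Python 3.11.15, NumPy 2.4.6, pandas 2.3.3 and Matplotlib 3.10.9 were used. Code for windows and levels was tested on simulated data.

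The partially methylated windows and the gene lists were chosen with earlier results of these data known. Windows named in the text are the 5 longest runs, the 3 lowest, the 3 nearest to the cut-off on either side, and the 3 with the largest difference in each comparison and direction past a call size. That size was 3 points for DMSO minus non-differentiated and EED inhibitor minus DMSO, and 25 points for DNMT1 inhibitor minus DMSO. Genes named from a list are at most 5 per list, from the lowest window up. Sequences were taken by sequence and coverage as solitary and clustered CpGs, and only the solitary ones are printed. Some genes that these rules name are not reported here. Other names in the text were chosen after their values were seen. Alternatives changed the cut-off, the grid, the window size, the CpG and coverage minimums, the weighting, the islands, the deepest CpGs, the library that chose the windows, and the chromosomes with uneven coverage.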

Additional observations from a re-analysis of the deposited data

How the results depend on the processing

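Under 11 alternatives the partially methylated windows kept negative differences in all 3 comparisons. With each of the 11 the EED inhibitor difference was nearer to 0 in the other windows, and the share kept with the DNMT1 inhibitor lower in the partially methylated ones. The sign of the differentiation difference supports nothing, since in all but the choice by DMSO the non-differentiated library chose the windows, and DMSO enters it too. The values below are in points, in the order differentiation, DNMT1 inhibitor and EED inhibitor. A cut-off of 45% gave −0.704, −29.4 and −1.82, and 55% gave −0.853, −33.3 and −1.52. A coverage minimum of 20 reads gave −0.766, −31.5 and −1.72, an unweighted mean over CpGs −0.764, −32.1 and −1.61, and windows chosen in DMSO −0.822, −32.0 and −1.61. Windows of 50 kb gave 22529 of 53089 and −0.753, −31.5 and −1.64. Leaving out island CpGs gave −31.8 for the DNMT1 inhibitor and −1.72 for the EED inhibitor. The DNMT1 inhibitor difference was −31.7 with at least 100 shared CpGs, without CpGs over 100 reads, and without chromosome 18 and chromosome 10 beyond 100 Mb. These shifts exceed the counting error alone, which is very small with so many reads. Shifting the grid by 50 kb moved none of them past it.

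Counts of falls depend on the call size. For differentiation they were 543 (4.87%) at 2 points, 38 (0.341%) at 3 and 0 at 5. Of all tested windows 11.9%, 1.67% and 0.0639% reached these sizes. For the EED inhibitor they were 4465 (40.1%), 1244 (11.2%) and 14 (0.126%), beside 21.0%, 5.65% and 0.0939% of all tested windows. At 5 points the shares for the EED inhibitor lay close together. No paired analysis was possible because each group has 1 library. Spread between cultures was not measured, and levels of conversion in each library were not analysed here.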
